A study of Mus musculus with 13 samples.

Results

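Microtubules are hollow polymers of alpha- and beta-tubulin heterodimers, and each subunit is encoded by several genes whose products are called isotypes. The isotypes are nearly alike over most of their length and differ mainly in an acidic tail at the carboxyl end, which lies on the microtubule surface and is modified by enzymes. Cells also adjust tubulin mRNA to the amount of free tubulin: when soluble dimers are abundant, the adaptor TTC5 binds the first residues of the nascent protein on the ribosome and the mRNA is degraded. In fibroblasts tubulin mRNA is abundant, since microtubules form both the interphase array and the mitotic spindle.

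Described here are 10 of the 57010 genes listed, the alpha-tubulin genes Tuba1a, Tuba1b, Tuba1c and Tuba4a and the beta-tubulin genes Tubb2a, Tubb2b, Tubb3, Tubb4b, Tubb5 and Tubb6. They were chosen by symbol from the family with their expected counts in the 4 groups in view, so that all fold changes and adjusted p given for them describe these counts and are no independent support. Every member passed the low-count filter, with between 240 and 66571 counts in any sample. Levels of 1 gene are given as CPM, its counts relative to the library total after TMM scaling. The family members left out were far lower, the highest alpha or beta gene among them being Tubb4a with a mean of 0.219 CPM and Tuba8 with 0.185 CPM.

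RNA was sequenced from mouse embryonic fibroblasts (MEFs) of wild-type embryos. Control MEFs are labelled untreated and, per the study's results text, received vehicle in place of etoposide. The MEFs were isolated at embryonic day 12.5 to 13.5. Senescent MEFs had received etoposide, a topoisomerase poison that breaks DNA, at 2 μM for 24 h and then 5 days of normal medium, and were left untreated or were given Fucoidan-FV, a seaweed polysaccharide rich in sulfate and fucose, for 12 h at a dose of either 100 or 300 μg/mL. Each of the 4 groups held mice 4, 5 and 6, and control mouse 5 was sequenced as libraries 5(1) and 5(2), which were summed. By the labels a mouse number names the same mouse in each group, and how its cells were divided among groups is not given. The p-values measure the spread between these samples. In such bulk RNA, fewer cells of a kind and less RNA per cell cannot be told apart.

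Library totals of the 13 libraries ran from 22782536 to 31278750 counts, of which the members took 0.12% to 0.491%. Cdkn1a (log2 fold change 1.82, SE 0.18, adjusted p = 6.8e-05) and Cdkn2a (2.46, SE 0.25, adjusted p = 7.24e-05), inhibitors of cell cycle kinases, were higher in senescent than in control MEFs, and Lmnb1, Mki67 and Top2a were lower (−4.00, −4.57 and −4.56, adjusted p = 0.000408, 0.000866 and 0.0004). The 10 fibroblast markers were all detected, with summed levels of 31846 to 53789 CPM over the samples. Of 10 neuronal markers, 6 were below 1 CPM in every sample, and so were 4 of 5 epithelial markers. Libraries also differed in the counts of genes by how much of their sequence is unique, that is, found in only 1 transcript of any gene. The median log2 deviation of the 510 genes above 95% unique sequence, less that of the 5686 genes below 50%, was lowest in control mouse 6 (−1.64) and highest in mouse 5 given 100 μg/mL (1.29). This library shift was −1.31 in library 5(1) and 1.12 in library 5(2) of the same control mouse, and it was low as well in senescent mouse 5 (−1.17) and in mouse 4 at 300 μg/mL (−1.44).

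The coding sequences show how alike the genes are whose reads had to be told apart. Each gene has 4 coding exons and 1335 to 1356 coding bases. Between alpha members 84.7% to 98.3% of aligned coding bases were identical, between beta members 80.2% to 96.5%, and between an alpha and a beta member 52.3% to 55.1%. Tuba1a and Tuba1b were the closest pair with 98.3%, followed by Tuba1b with Tuba1c (97.9%), Tuba1a with Tuba1c (97.1%) and Tubb2a with Tubb2b (96.5%). The last 60 coding bases are printed because they hold the tail by which isotypes are told apart. They run from 5′ to 3′ on the gene's strand and were read from the GRCm39 genome at the positions given, and capitals mark the codons GAA, GAG, GAC and GAT, which encode the acidic residues. They are shown for 2 alpha members:
Tuba1c (chr15:98935831-98935890, plus strand): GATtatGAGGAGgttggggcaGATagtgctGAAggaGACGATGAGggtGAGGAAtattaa
Tuba4a (chr1:75192266-75192325, minus strand): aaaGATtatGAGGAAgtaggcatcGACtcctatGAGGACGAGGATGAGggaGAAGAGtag
The tails of 5 beta members read as follows:
Tubb2a (chr13:34258451-34258510, minus strand): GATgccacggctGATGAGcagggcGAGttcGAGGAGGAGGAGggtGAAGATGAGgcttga
Tubb2b (chr13:34311454-34311513, minus strand): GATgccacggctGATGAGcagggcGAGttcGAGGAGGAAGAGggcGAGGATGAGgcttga
Tubb3 (chr8:124148362-124148421, plus strand): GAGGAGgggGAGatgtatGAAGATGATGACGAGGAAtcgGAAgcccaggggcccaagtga
Tubb4b (chr2:25112320-25112379, minus strand): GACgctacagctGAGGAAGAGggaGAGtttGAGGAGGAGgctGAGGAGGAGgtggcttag
Tubb5 (chr17:36145874-36145933, minus strand): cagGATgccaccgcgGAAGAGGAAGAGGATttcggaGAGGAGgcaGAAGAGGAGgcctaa

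Among the 19 codons before the stop, 10 or 11 were acidic in every member. The first 30 coding bases are shown for the most abundant gene of each family and for Tuba4a and Tubb3, with capitals on the first 4 codons, which encode the residues that TTC5 reads:
Tuba1b: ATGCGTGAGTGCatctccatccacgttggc
Tuba4a: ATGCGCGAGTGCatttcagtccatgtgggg
Tubb5: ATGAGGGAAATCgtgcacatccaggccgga
Tubb3: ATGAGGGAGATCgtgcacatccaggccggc
The first coding exon holds 3 coding bases in the alpha genes, the start codon alone, and 57 in the beta genes. The opening 12 bases were identical in Tuba1a, Tuba1b and Tuba1c, and Tubb3 and Tubb4b also shared theirs. Ttc5 mRNA was at 12.9 ± 5.71 CPM (SD, n = 3) in control and 15.2 ± 1.61 CPM in senescent MEFs, and its differences did not pass the test in senescent against control MEFs (adjusted p = 0.716) or at either dose against senescent MEFs (adjusted p = 0.49 and 0.89, edgeR).

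Similarity of sequence limits how well reads can be assigned. Reads that fit more than 1 transcript are apportioned by RSEM. Cut into words of 50 bases, 72.7% of the transcript sequence of Tuba1a was found in other genes too, most of it in Tuba1c, compared with 46.5% of Tuba1c, 35.8% of Tuba1b, 34% of Tubb2a and 14.5% of Tubb2b. For Tubb4b the share was 37.8%, mostly with the pseudogene Tubb4b-ps1. It was below 1% for Tuba4a, Tubb3, Tubb5 and Tubb6. Levels within the Tuba1 group and within the Tubb2 pair therefore rest on this division.

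Levels between genes were compared as TPM, a unit per transcript length and library. Over the 12 samples Tubb5 had the highest mean (716 TPM), followed by Tuba1b (542 TPM), Tuba1a (473 TPM) and Tuba1c (302 TPM). The other 6 members lay close together, from 78.3 TPM for Tubb2a to 58.4 TPM for Tubb4b, and neighbours in that order overlapped. Summed over the 4 alpha members, control MEFs held 2347 ± 548 TPM (SD, n = 3), senescent MEFs 1191 ± 326 TPM, MEFs at 100 μg/mL 1073 ± 201 TPM and those at 300 μg/mL 914 ± 112 TPM. The 6 beta members followed with 1695 ± 437, 938 ± 197, 855 ± 173 and 732 ± 75.4 TPM. In both TPM sums every control sample was above every sample of the other groups, while the 3 senescent groups overlapped. TPM carries no TMM scaling. Single members at 300 μg/mL did not all overlap as the sums did. Tuba1c, Tuba4a and Tubb5 were each below every senescent sample in CPM and in TPM. Tuba1b was so in CPM only, with 276 to 356 TPM against 290 to 561 TPM in senescent MEFs. In CPM 10.2% of all genes were lower without overlap at this dose. The other members overlapped in CPM, while in TPM Tubb3 was above every senescent sample (65.1 to 95.2 against 42.5 to 46.5 TPM). The ratio of the alpha to the beta sum was 1.39 ± 0.0551 in control MEFs and 1.26 ± 0.0799, 1.26 ± 0.022 and 1.25 ± 0.0511 in the 3 senescent groups.

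**Figure D1:**
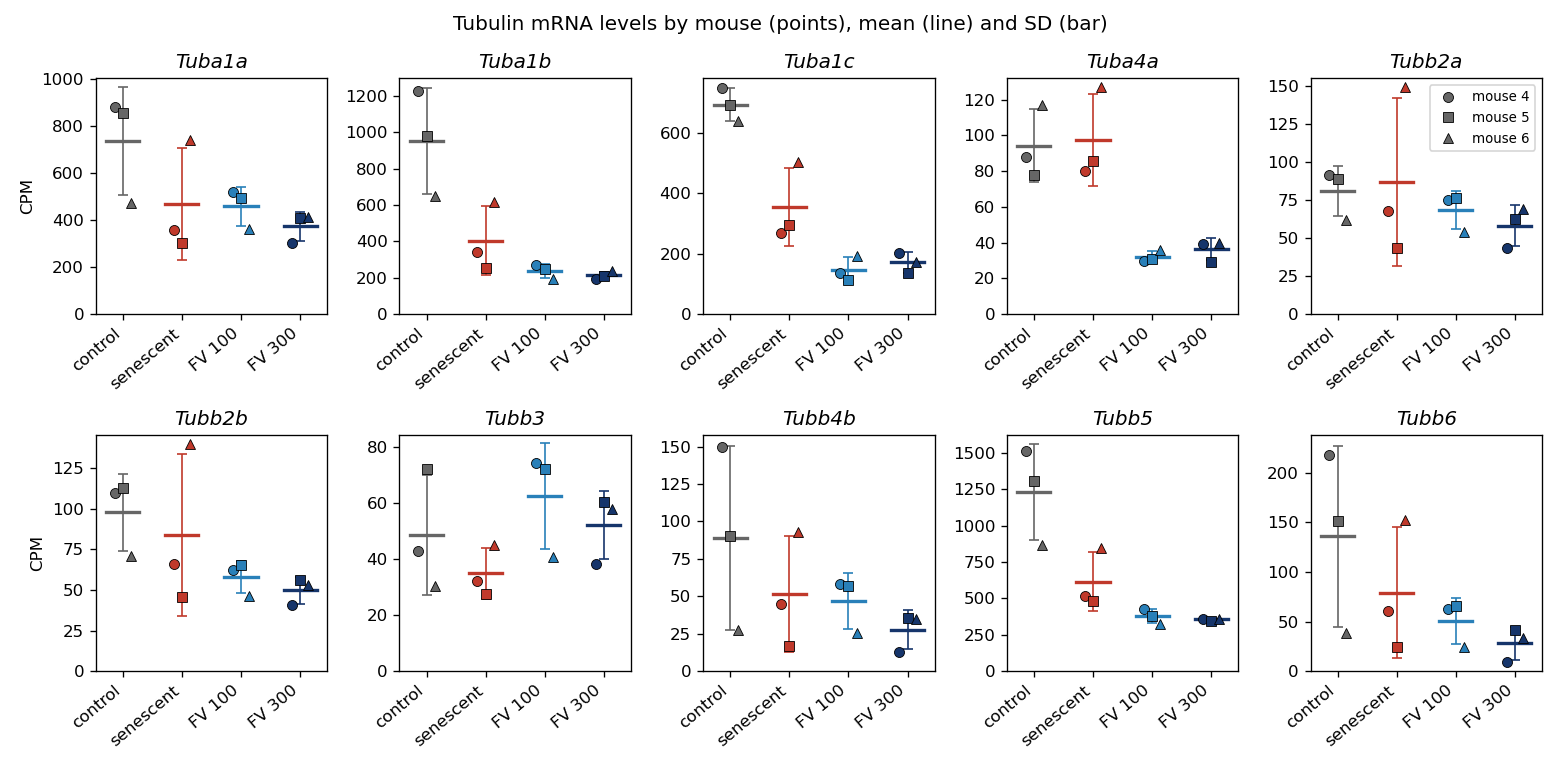
CPM (linear axes from 0) of each member in mice 4, 5 and 6 of control MEFs, senescent MEFs and senescent MEFs with Fucoidan-FV at 100 or 300 μg/mL (FV 100, FV 300). Points are mice, lines means and bars SD; Tuba4a in treated MEFs sits between 29.1 and 40.1 CPM, below all other samples, and senescent mouse 6 is the highest of its group in every panel.

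The first question was how tubulin mRNA differed between senescent and control MEFs. The most abundant gene of each family fell, Tuba1b 2.36-fold and Tubb5 2-fold. Of the 10 members, 2 were DEGs (adjusted p under 0.05 and absolute log2 fold change over 1, edgeR's quasi-likelihood test with Benjamini-Hochberg adjustment over 15034 genes), and both were lower. Over all genes 3.95% were DEGs that were lower. The median log2 fold change was −0.72 over the members and 0.07 over all genes, and 8 of 10 members had a negative value. The values of senescent and control MEFs did not overlap for 3 members, all lower in senescent MEFs, where 12.9% of all genes did so. In each of the 10 members senescent mouse 6 was above the other 2 senescent mice.

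Tuba1b (ENSMUSG00000023004, chr15:98827738-98832493, minus strand) encodes a widely expressed alpha-tubulin. It was at 1230, 982 and 650 CPM in control mice 4, 5 and 6 and at 341, 253 and 620 CPM in the senescent mice. The lowest control sample was thus only just above senescent mouse 6. The log2 fold change was −1.24 (SE 0.31, adjusted p = 0.0189), a 2.36-fold lower level, seen in 3 of 3 mice. The call was lost with a fit of only these 2 groups (adjusted p = 0.08), and without control mouse 4, control mouse 5, senescent mouse 4 or senescent mouse 5 (adjusted p = 0.0942, 0.0615, 0.0855 and 0.0698).

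Tubb5 (ENSMUSG00000001525, chr17:36144809-36149198, minus strand), the main beta-tubulin of dividing cells, was at 1515, 1307 and 868 CPM in control mice and at 516, 480 and 849 CPM in senescent mice 4, 5 and 6. With SE 0.25 and adjusted p = 0.0181, its log2 fold change of −1.0004 was on the very edge of the fold required. It was called in 5 of 17 alternative fits, over which it ran from −1.29 without senescent mouse 6 to −0.83 without control mouse 4 (adjusted p = 0.083), and the call ended with the mouse as replicate block (−0.99, adjusted p = 0.0398). Across the 12 samples the log2 levels of Tubb5 and Tuba1b had a Pearson r of 0.993, which describes samples of 4 groups and shares the libraries' differences. The non-members most like Tuba1b among 12646 genes were Emg1 (r = 0.986), Cdk2ap1 (0.979) and Srm (0.979), and those most like Tubb5 were Metrnl (0.978), Hsp90ab1 (0.974) and Nop16 (0.973). Hsp90ab1, a cytosolic chaperone, went from 1694 CPM in control to 1024 CPM in senescent MEFs, and Srm, which makes spermidine, from 149 to 71.9 CPM.

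Tuba1c (ENSMUSG00000043091, chr15:98927748-98936266, plus strand) was the third member without overlap. Control mice had 748, 692 and 638 CPM and senescent mice 267, 296 and 504 CPM. The log2 fold change of −0.96 (SE 0.26, adjusted p = 0.0303) missed the fold required and passed it with the mouse as replicate block (−1.01, adjusted p = 0.0229). Without senescent mouse 6, which was closest to the controls, 4 members were DEGs: Tuba1b, Tuba1c (−1.29, adjusted p = 0.000567), Tubb5 and Tuba1a (−1.14, adjusted p = 0.0234). The 8 proliferation markers summed to 562 to 790 CPM in control and to 29.6 to 52 CPM in senescent MEFs, all 8 detected, and their part in the lower tubulin levels was not tested. In senescent mouse 6 that sum was 52 CPM and the sum of 6 skeletal muscle markers 359 CPM. The muscle sum was 149 and 161 CPM in the other senescent mice and 104 to 196 CPM in control MEFs. Myod1, Myog and Myh3 were below 1 CPM in every sample.

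The remaining members did not pass the test in senescent against control MEFs. Tuba1a (ENSMUSG00000072235, chr15:98847714-98851589, minus strand), known for its role in the developing brain, had control values of 884, 856 and 474 CPM and senescent values of 360, 303 and 741 CPM (log2 fold change −0.66, SE 0.32, adjusted p = 0.227). Of its exonic bases 26.2% are shared with Gm49450, a gene on the same strand that also covers 12.2% of Tuba1b and was itself at 333 CPM in control and 169 CPM in senescent MEFs (log2 fold change −0.98, adjusted p = 0.0113). The level of Tuba4a was 94.2 ± 20.2 CPM in control and 97.4 ± 25.4 CPM in senescent MEFs (log2 fold change 0.05, SE 0.23, adjusted p = 0.933). Tubb2a and Tubb2b, a neighbouring pair on chromosome 13, had log2 fold changes of 0.10 (SE 0.36) and −0.22 (SE 0.34), with adjusted p of 0.91 and 0.758.

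**Figure D2:**
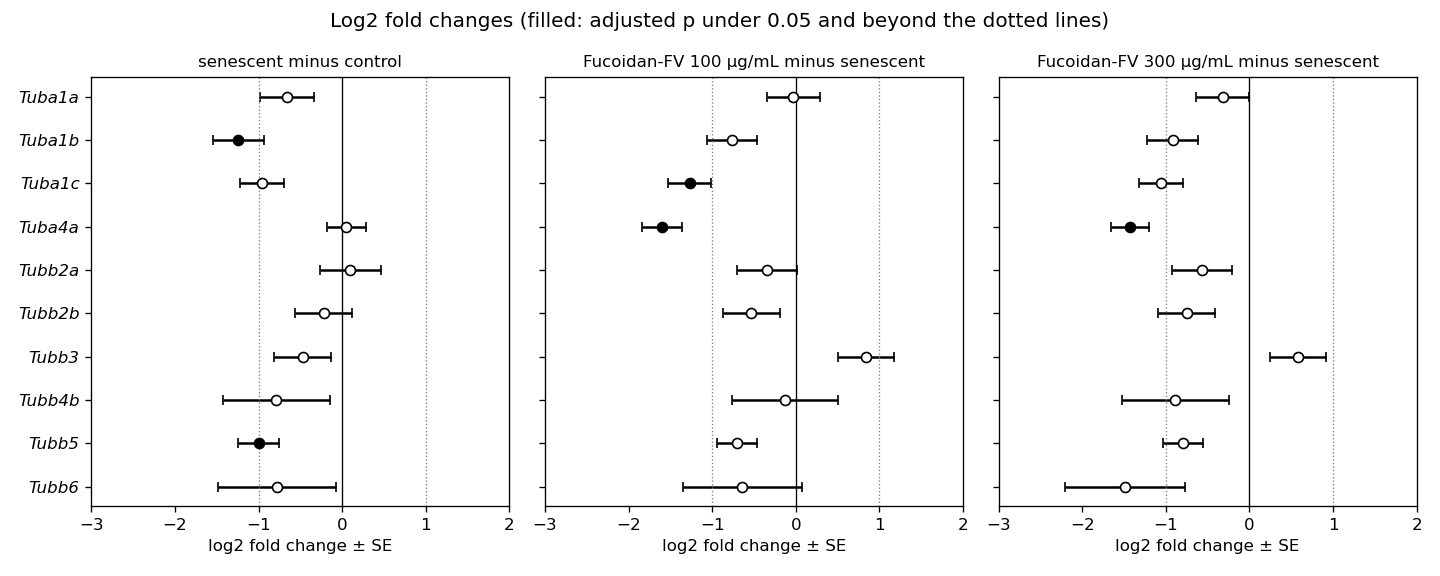
Log2 fold change with its SE (edgeR) of each member in 3 comparisons, filled where the member was a DEG. The values are mostly left of 0, Tuba4a is at 0.05 in senescence and at −1.60 and −1.43 with Fucoidan-FV, and Tubb3 alone is right of 0 at both doses without being called.

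The second question was what 12 h of Fucoidan-FV did to these mRNAs in senescent MEFs. Tuba4a fell at both doses, 3.03-fold and 2.69-fold, and Tuba1c, already low in senescent MEFs, fell 2.42-fold at 100 μg/mL. At 100 μg/mL, 2 of 10 members were DEGs, both lower, and 1.6% of all genes were DEGs that were lower. At 300 μg/mL it was 1 of 10, compared with 0.885% of all genes. The median log2 fold change of the members was −0.58 at 100 μg/mL and −0.84 at 300 μg/mL, beside −0.02 and 0.00 over all genes. Without overlap and lower were 3 members at 100 μg/mL, where 15% of all genes were, and 4 members at 300 μg/mL, where 10.2% of all genes were. Both doses were compared with the same 3 senescent samples.

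Tuba4a (ENSMUSG00000026202, chr1:75189219-75196566, minus strand) encodes the alpha-tubulin that lacks the terminal tyrosine codon, which the Tuba1c sequence above carries just before the stop. Senescent mice 4, 5 and 6 had 80.2, 85.5 and 127 CPM, those at 100 μg/mL 30, 30.6 and 36.1 CPM, and those at 300 μg/mL 39.4, 29.1 and 40.1 CPM. The highest treated sample, at 40.1 CPM, was below the lowest of the control and senescent samples, at 77.7 CPM. The log2 fold change was −1.60 (SE 0.24, adjusted p = 0.00429) at 100 μg/mL and −1.43 (SE 0.23, adjusted p = 0.00991) at 300 μg/mL, 3.03-fold and 2.69-fold lower levels in 3 of 3 mice. At the lower dose the call held in 17 of 17 alternative fits (log2 fold changes −1.69 to −1.22). At the higher dose it held in 16 of 17 and was lost without mouse 6 of the treated group (−1.51, adjusted p = 0.0514).

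Tuba4a shares 35.5% of its exonic bases with Stk16 on the opposite strand, a kinase gene, and whether counting used the strand is not given in the sources used here. Stk16 was at 58.1 ± 18.1 CPM in senescent MEFs, 39 ± 5.46 CPM at 100 μg/mL and 45.2 ± 4.27 CPM at 300 μg/mL, with log2 fold changes of −0.58 (adjusted p = 0.173) and −0.36 (adjusted p = 0.499). Library 5(2) of control mouse 5 had 56.8 CPM of Tuba4a relative to the unscaled library total and library 5(1) 84.1. All 6 treated libraries, with shifts from −1.44 to 1.29, had 31.7 to 41.4. With an offset for single-transcript sequence the log2 fold changes were −1.43 (adjusted p = 0.0035) and −1.42 (adjusted p = 0.00387). The 4 endothelial markers summed to 1.37 to 1.9 CPM in senescent MEFs, 5.53 to 9.58 CPM at 100 μg/mL and 3.82 to 7.86 CPM at 300 μg/mL, with Cdh5 below 1 CPM in every sample. The 6 skeletal muscle markers summed to 149 to 359 CPM in senescent MEFs, 92.5 to 148 CPM with the lower dose and 68.2 to 119 CPM with the higher. Treated and senescent samples did not overlap, but at the lower dose only by 148 against 149 CPM. Control MEFs, at 104 to 196 CPM, overlapped with senescent MEFs and with both doses. Only 1 of the 4 endothelial and 2 of the 6 skeletal muscle markers had a mean of 1 CPM or more. Myod1, Myog and Myh3 were below 1 CPM in every sample. Whether such cells were present, and their part in the results with Fucoidan-FV, was not tested.

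Tuba1c went from 267, 296 and 504 CPM in senescent mice 4, 5 and 6 to 136, 114 and 192 CPM at 100 μg/mL and 204, 136 and 173 CPM at 300 μg/mL. All treated values were below all untreated ones. The lower dose gave −1.27 on the log2 scale (SE 0.26, adjusted p = 0.0194). At 300 μg/mL it was −1.06 (SE 0.26, adjusted p = 0.0603), and it was called in 7 of 17 alternative fits (−1.21 to −0.68). It passed the test with the offset (−1.07, adjusted p = 0.0298) and with DESeq2 (−1.04, adjusted p = 0.00628). With the mouse as replicate block it did not (−1.03, adjusted p = 0.0652). The call with the lower dose was lost without mouse 4 or mouse 5 of the treated group (adjusted p = 0.0943 and 0.102), and without senescent mouse 6 the log2 fold change was −0.81 (adjusted p = 0.0294).

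Tubb5 and Tuba1b were also below senescent MEFs in 3 of 3 mice at both doses without passing the test. Tubb5 had 428, 383 and 327 CPM with the lower dose and 362, 348 and 357 CPM with the higher, with no overlap with senescent MEFs (log2 fold changes −0.70 and −0.79, adjusted p = 0.131 and 0.125). Tuba1b was at 271, 250 and 195 CPM and at 195, 211 and 235 CPM (−0.76 and −0.92, adjusted p = 0.18 and 0.15). The 3 samples at 300 μg/mL were closely alike for Tubb5, 355 ± 7.03 CPM, beside 615 ± 203 CPM in senescent MEFs. Tuba1a, in contrast, was at 520, 493 and 364 CPM at 100 μg/mL, within the range of the senescent samples, and its log2 fold change of −0.03 (adjusted p = 0.973) turned to 0.15 with the offset and to 0.63 without senescent mouse 6.

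Tubb3 (ENSMUSG00000062380, chr8:124138163-124150092, plus strand), the beta-tubulin used as a neuronal marker, was the 1 member with positive values at both doses. Senescent mice 4, 5 and 6 had 32, 27.5 and 45 CPM, those at 100 μg/mL 74.3, 72.1 and 40.6 CPM and those at 300 μg/mL 38.3, 60.4 and 57.7 CPM. The groups overlapped, and neither log2 fold change, 0.84 at the lower dose (adjusted p = 0.186) and 0.58 at the higher (adjusted p = 0.458), each with an SE of 0.34, passed the test. Its level in library 5(2) of control mouse 5 was 4.21 times that in library 5(1), beside a 1.79-fold difference between MEFs at 100 μg/mL and senescent MEFs. The 10 neuronal markers summed to 1.33 to 5.48 CPM over the samples, and Snap25, Syp, Elavl3, Nefl, Syt1 and Dcx were below 1 CPM in each.

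Tubb2a (ENSMUSG00000058672, chr13:34257549-34261998, minus strand) and Tubb2b (ENSMUSG00000045136, chr13:34307245-34315143, minus strand) ranged from 43.3 to 149 CPM and from 40.5 to 140 CPM over the 12 samples. For each of them the highest sample was senescent mouse 6. Their log2 fold changes were −0.34 and −0.53 at 100 μg/mL and −0.57 and −0.75 at 300 μg/mL (adjusted p = 0.669, 0.428, 0.512 and 0.323), and those at 100 μg/mL turned to 0.46 and 0.21 without senescent mouse 6.

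Tubb4b (ENSMUSG00000036752, chr2:25112170-25114714, minus strand), a widely expressed beta-tubulin, and Tubb6 (ENSMUSG00000001473, chr18:67523585-67536773, plus strand), a divergent one, varied most between samples of 1 group. Tubb6 was at 218, 151 and 38.3 CPM in control mice 4, 5 and 6, at 60.5, 24 and 152 CPM in senescent mice, at 62.4, 65.9 and 24.1 CPM with the lower dose and at 9.3, 41.3 and 33.6 CPM with the higher. Tubb4b had 150, 90.2 and 27.2 CPM in control, 45, 16.8 and 92.8 CPM in senescent MEFs, 58.3, 57.1 and 25.4 CPM at 100 μg/mL and 12.6, 35.8 and 34.7 CPM at 300 μg/mL. In each group the lowest sample of both genes was the one with the lowest library shift. Of the transcript sequence of Tubb6, 94.8% occurs in a single transcript, and of that of Tubb4b 53.4%.

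The libraries of control mouse 5 show the same pattern within 1 mouse. As CPM of the unscaled library total, Tubb6 was at 51 in library 5(1) and 251 in library 5(2), a ratio of 4.92, and Tubb4b 36.8 and 142, a ratio of 3.85. For Tubb5 and Tuba1b the ratios were 1.17 and 1.2, and for Tuba1c and Tuba4a they were below 1 (0.694 and 0.675). Tuba1a, Tubb2a, Tubb2b and Tubb3 had ratios of 1.89, 1.73, 2.36 and 4.21. The ratio did not follow the single-transcript share in every member, as that share was 27.3% for Tuba1a and 67% for Tubb5. With the offset for single-transcript sequence, Tubb4b was still at 152, 87.9 and 24 CPM in control mice 4, 5 and 6. Among libraries with a shift of 1.12 to 1.29, Tubb6 was at 251 in control library 5(2) and at 71.7 and 76.4 in mice 4 and 5 at 100 μg/mL. Among those with a shift of −1.64 to −1.17 it was at 34.3 and 51 in control mouse 6 and library 5(1), at 21.8 in senescent mouse 5 and at 8.93 in mouse 4 at 300 μg/mL.

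**Figure D3:**
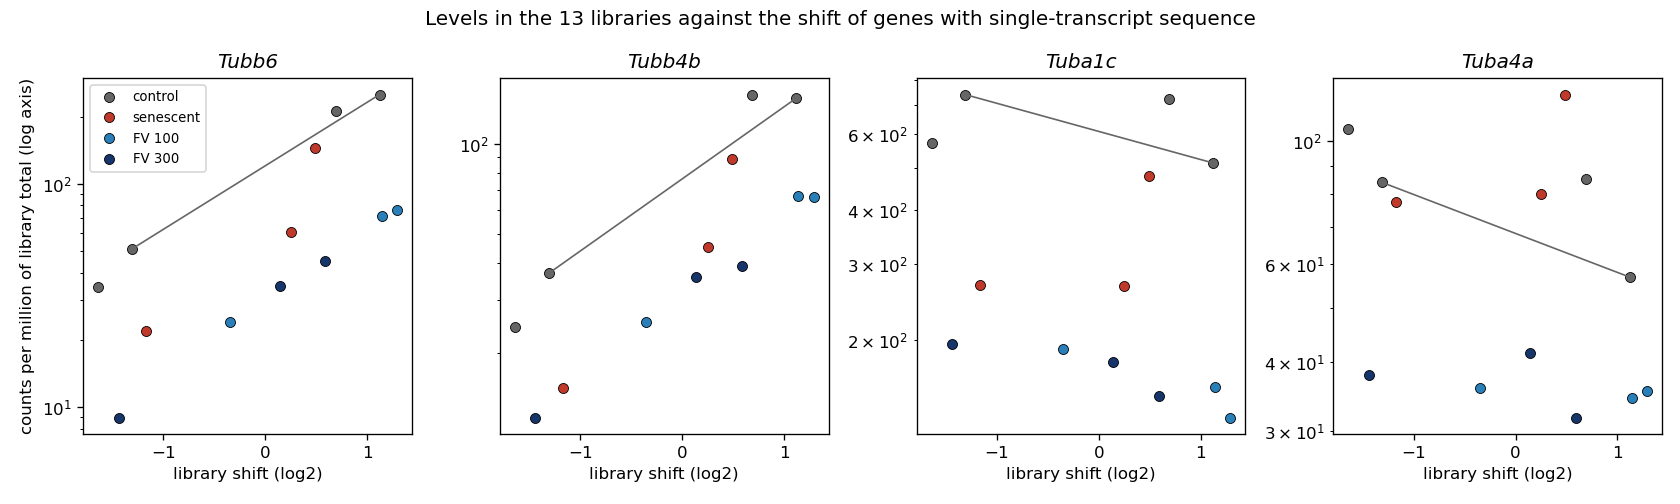
CPM of the unscaled library total (log axes) of 4 members in the 13 libraries against the library shift. The shift is the median log2 deviation of genes above 95% unique sequence, less that of genes below 50%. The line joins libraries 5(1) and 5(2) of control mouse 5. From library 5(1) to 5(2) Tubb6 goes from 51 to 251 and Tubb4b from 36.8 to 142, whereas Tuba1c and Tuba4a go down, and treated libraries of Tuba4a stay between 31.7 and 41.4.

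Treated senescent MEFs were also compared with control MEFs. At 100 μg/mL 4 members were DEGs, all lower (9.37% of all genes were DEGs that were lower), and at 300 μg/mL 5 were (8.11% of all genes). Tuba1b, Tuba1c, Tuba4a and Tubb5 were the 4 at 100 μg/mL. Each was called in 17 of 17 alternative fits at both doses, among them those with 1 sample left out in turn. Their levels were 4-fold, 4.71-fold, 2.92-fold and 3.24-fold lower, with adjusted p of 0.000489, 8.16e-05, 0.000395 and 0.000326. With the higher dose the log2 fold changes were −2.16, −2.02, −1.38 and −1.79, with adjusted p of 0.000324, 0.000181, 0.000938 and 0.000245.

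Tubb6 was the fifth DEG at 300 μg/mL (log2 fold change −2.28, SE 0.74, adjusted p = 0.0386), although its groups overlapped. The call was lost with the mouse as replicate block (adjusted p = 0.0811), with library 5(1) alone (0.0864) and without control mouse 4 or 5 or any single treated mouse (adjusted p up to 0.184). With the offset for single-transcript sequence it was called at both doses (−1.96, SE 0.39, adjusted p = 0.00222 and −2.26, SE 0.39, adjusted p = 0.000969). Between the doses 0 members were DEGs in edgeR's quasi-likelihood test, beside 0.00665% of all genes, 0 members had an unadjusted p under 0.05, and DESeq2 called 0. Their log2 fold changes of 300 against 100 μg/mL were between −0.86 (Tubb6, SE 0.71) and 0.22 (Tuba1c, SE 0.26).

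The make-up of the tubulin mRNA pool was described as the share of each member in the summed TPM of its family, with no test. Tuba1a made up 25.9%, 29% and 21.1% of the alpha sum in control mice 4, 5 and 6 and 30.1%, 28.4% and 34.2% in the senescent mice. In treated MEFs it took 50.8%, 52.2% and 42.6% at 100 μg/mL and 36%, 48.4% and 41.9% at 300 μg/mL. All treated samples were above all untreated ones, and in TPM Tuba1a passed Tuba1b as the largest alpha share in each of them. In mouse 4 at 300 μg/mL the margin was small, 36% against 35.1%. By expected counts Tuba1a was already above Tuba1b in untreated senescent mice 4, 5 and 6. The shares there were 34.4% against 32.5%, 32.3% against 26.9% and 37.2% against 31.1%. The share of Tuba1b was 45.7% ± 2.73 (SD, n = 3) in control, 35.7% ± 3.18 in senescent, 31.8% ± 1.53 at 100 μg/mL and 34.3% ± 1.96 at 300 μg/mL. Libraries 5(1) and 5(2) of control mouse 5 gave Tuba1a shares of 21.1% and 35.7%, so that the share also moves with the library. Among libraries of low shift it was 21.1% in both controls, 28.4% in senescent mouse 5 and 36% in mouse 4 at 300 μg/mL.

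Tuba4a had 3.69% ± 1.39 of the alpha sum in control MEFs, 7.62% ± 0.909 in senescent MEFs, 3.88% ± 0.783 at 100 μg/mL and 4.74% ± 0.729 at 300 μg/mL. Senescent samples, at 6.73% to 8.55%, were above all others. The CPM of Tuba4a itself had been 97.4 and 94.2 in senescent and control MEFs, while the alpha sum was lower in senescent MEFs.

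Among the beta members Tubb5 held 76.1% ± 5.04 of the sum in control MEFs, 68.9% ± 8.34 in senescent MEFs, 57.4% ± 7.47 at 100 μg/mL and 64.6% ± 8.56 at 300 μg/mL, and it was the largest share in all 13 libraries. Tubb3 took 2.55% to 4.78% in control, 4.05% to 5.6% in senescent MEFs, 10% to 12% at 100 μg/mL and 10.1% to 12.3% at 300 μg/mL, so that treated samples did not overlap with untreated ones. In library 5(2) of control mouse 5 the Tubb3 share was 6.41%, the highest of any untreated library, and in library 5(1) 2.67%. In mouse 4 at 300 μg/mL and senescent mouse 5, both of low shift, it was 10.1% and 5.6%. Tubb2a had 4.47% ± 0.211 in control MEFs and 8.04% ± 2.51, 10.4% ± 1.15 and 9.31% ± 1.87 in the other groups.

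**Figure D4:**
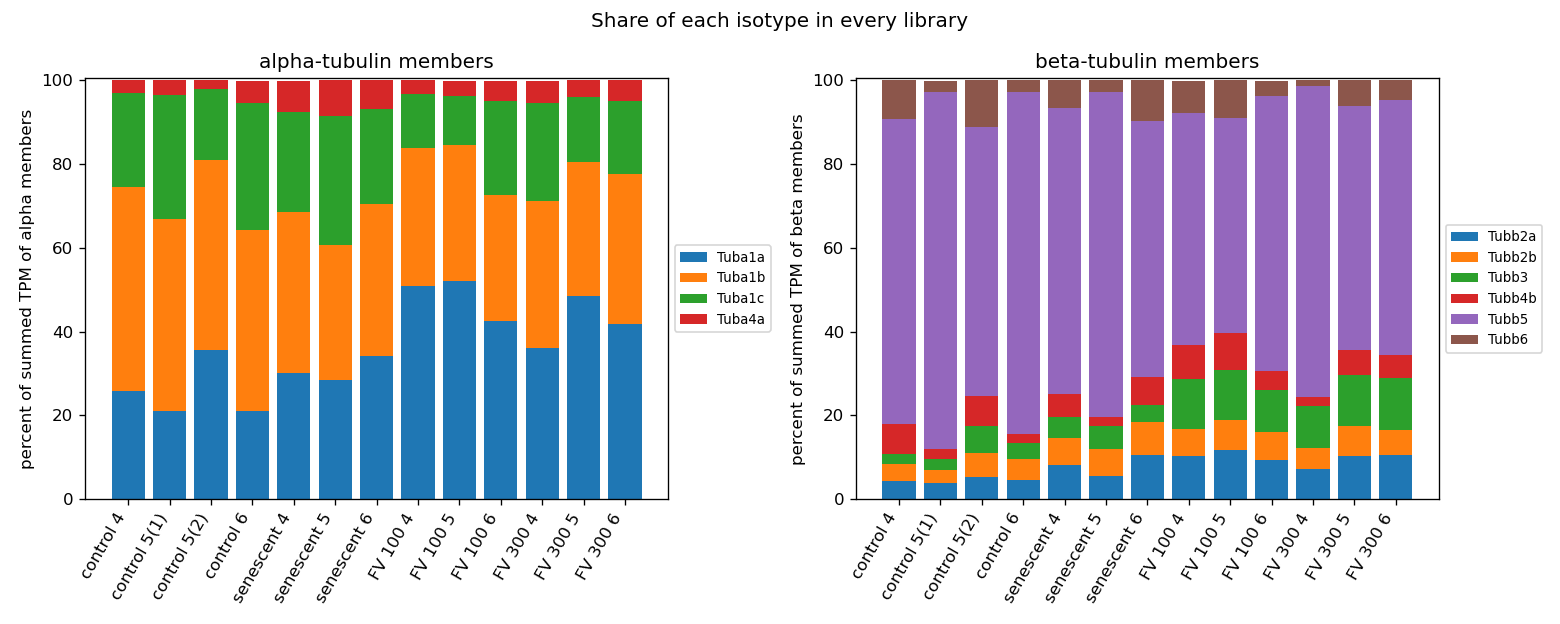
Percent of the summed TPM of the 4 alpha (left) and 6 beta (right) members taken by each gene in each of the 13 libraries, labelled by group and mouse. Tuba1a takes 36% to 52.2% of the alpha sum in treated libraries and 21.1% to 35.7% in the others, and Tubb5 is the largest beta share throughout.

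Genes that fold, modify and organise tubulin were counted from 6 lists of 110 genes, of which 100 were tested. In senescent against control MEFs 3 were DEGs that were higher and 16 that were lower, where 4.47% of all genes were higher and 3.95% lower. The median log2 fold change of the lists together was −0.22, beside 0.07 over all genes. Of 18 nucleation genes, which start new microtubules at the centrosome and along existing ones, 7 were lower and 0 higher, among them the augmin subunits Haus5 (−2.97, SE 0.73, adjusted p = 0.0181), Haus6 (−2.02, SE 0.36, adjusted p = 0.00266) and Haus4 (−1.81, SE 0.47, adjusted p = 0.0242). Of 20 plus-end, severing and depolymerising genes 5 were lower and 1 higher. The kinesins Kif2c (−4.19, adjusted p = 0.000521) and Kif18b (−3.76, adjusted p = 0.00618), which shorten microtubules in mitosis, and the severing protein Fign (−3.05, adjusted p = 0.0394) fell most, and Mapre3, a plus-end binding protein, rose from 27 ± 6.21 to 64.2 ± 5.88 CPM (log2 fold change 1.25, adjusted p = 0.00129).

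Of 15 genes of microtubule stabilisers, the spindle proteins Prc1 (−3.96, adjusted p = 0.000333) and Tpx2 (−2.73, adjusted p = 1.82e-05) fell and Map7, which binds along microtubules, rose from 0.349 to 3.69 CPM (3.41, adjusted p = 0.0139). Of 20 tested tubulin-modifying enzymes 2 fell, the glutamylase gene Ttll4 (−1.89, adjusted p = 0.000353) and Vash2 (−1.40, adjusted p = 0.00322), whose product removes the terminal tyrosine of alpha-tubulin. Of 22 genes for folding and autoregulation 1 was called, Arl2, a GTPase that works with the tubulin cofactors, which rose (1.09, adjusted p = 0.0467). The Arl2 call ended with the replicate block (1.03, adjusted p = 0.0991), and without any single control mouse or senescent mouse 6 (0.59, adjusted p = 0.107). The calls of Haus5, Haus4, Fign and Map7 ended too with a control mouse left out, mouse 5 for Map7 (adjusted p = 0.0663), mouse 4 or 5 for Haus5 and Haus4 and any of them for Fign, and with senescent mouse 4 (Haus5, Haus4), 5 (Haus4, Fign) or 6 (Fign) left out. Of the 5 other tubulins tested, which are Tubb4a and the gamma, delta and epsilon genes, 0 were called.

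With Fucoidan-FV few of these genes differed from untreated senescent MEFs. At 100 μg/mL 2 of the 100 were DEGs that were higher and 1 lower, where 1.1% and 1.6% of all genes were, and at 300 μg/mL 1 was higher and 1 lower, where 0.752% and 0.885% of all genes were. Map2, a microtubule-associated protein known from dendrites, rose from 2.34 ± 1.85 CPM to 19.1 ± 4.31 CPM at 100 μg/mL (log2 fold change 3.04, SE 0.54, adjusted p = 0.00897) and 21.8 ± 2.24 CPM at 300 μg/mL (3.23, SE 0.54, adjusted p = 0.0102). The call of Map2 ended with only the 2 groups (adjusted p = 0.0587 and 0.0523). Dclk1, a kinase of the doublecortin family, rose at 100 μg/mL (1.36, SE 0.34, adjusted p = 0.0457), and its value at 300 μg/mL was as large without passing the test (1.45, SE 0.34, adjusted p = 0.051). The call at the lower dose held in 11 of 17 alternative fits and ended with the replicate block (1.31, adjusted p = 0.0841) and without any single treated mouse (0.89 without mouse 6, adjusted p = 0.142). Tpx2, which had fallen in senescence, fell further, from 33 ± 5.84 CPM to 14.7 ± 4.44 CPM (−1.17, adjusted p = 0.0126) and 15.8 ± 1.33 CPM (−1.06, adjusted p = 0.0282). That call held in 13 and 10 of 17 alternative fits. It ended at both doses without senescent mouse 6 (−0.91 and −0.88), with the lower dose also without treated mouse 4 or 5 (adjusted p = 0.0691 and 0.0661) and with the higher without any single treated mouse (adjusted p = 0.0723, 0.119 and 0.138). In the folding list, which holds the subunits of the chaperonin CCT and of prefoldin, 19 of 22 genes had negative log2 fold changes at 100 μg/mL and 20 of 22 at 300 μg/mL, with medians of −0.52 and −0.58, and 0 of them were DEGs.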

How the data were processed

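RNA of 4 groups of mouse embryonic fibroblasts was extracted with Trizol and made into libraries with a stranded total RNA kit. The submitters' processing notes name FastQC 0.12.1, Trimmomatic, STAR 2.7.11b and RSEM 1.3.1 on GRCm39. The strand setting of RSEM and how the cells of mice 4, 5 and 6 were divided among groups are not given in the sources used here. The deposited tables hold, per gene and library, the expected count, in which the authors' RSEM run divided reads that match several transcripts, and the deposited TPM, which is per transcript length and scaled to a fixed library sum. Expected counts were rounded, and the 2 libraries of control mouse 5 were summed (TPM averaged). The 13 libraries held 22782536 to 31278750 counts, and 57010 genes were listed.

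Genes were kept by filterByExpr of edgeR 4.0.16 (minimum count 10, minimum total 15), scaled by TMM and fitted in 1 quasi-likelihood model over the 4 groups of 3 mice, with Benjamini-Hochberg adjustment over 15034 genes. DEGs were genes beyond 1 on the log2 scale in either direction with adjusted p under 0.05. CPM are counts relative to the TMM-scaled library total. The script was tested on simulated data. Alternatives were DESeq2 1.42.0, RLE factors, other filters, only the groups compared, libraries 5(1) and 5(2) apart or alone, and the mouse as replicate block. Each sample was also left out in turn. Leaving 1 mouse out means here that its sample in 1 group was left out, while its samples in the other groups stayed. An offset for single-transcript sequence was added after seeing the data. The same mouse number is the same mouse by the labels. Over 18 pairs of same-numbered samples the correlation of deviations from the group means had a median of −0.006 (range −0.2 to 0.43), and 8 were over 0.1.

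Symbols, exons and coding sequences were taken from GRCm39 with GENCODE vM39. Words of 50 bases were counted over those of its transcripts that the deposited data list, 148458 of 149443 listed. The library shift used genes of mean CPM 5 or more. All 10 members are named, the genes of the lists were named by direction and size of change among those called (up to 3 each way in senescence and 2 each way per dose, at a mean of 1 CPM or more in the higher group), the genes most like a member were the 3 with the highest Pearson r of log2(CPM + 1), and both members and lists were chosen with earlier results of these data known. Marker lists covered fibroblasts, neurons, macrophages, skeletal muscle, epithelium, endothelium and proliferation. The macrophage list summed to 0.47 to 16.7 CPM and the epithelial list to at most 2.24 CPM. Depth enters each fit through the library sizes. Some coding sequences are not reported here.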

Additional observations from a re-analysis of the deposited data

How the results depend on the processing

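Of 660 values for single members under alternatives that kept all mice, 614 kept direction and side of the threshold, 16 turned direction, 18 gained a call and 12 lost one. Of 360 with 1 mouse left out of 1 group, the numbers were 316, 20, 7 and 17. The cause was not tested in any of them. The number of members called in senescent against control MEFs, 2 in the report, was 1 with DESeq2, RLE factors, at least 10 counts in every sample or the offset (also with the replicate block), 0 with only the 2 groups, and 0 to 4 with 1 mouse left out. At 100 μg/mL against senescent MEFs it was 1 with only the 2 groups and 1 to 2 with 1 mouse left out. At 300 μg/mL it was 2 with DESeq2, at least 10 counts or the offset (also with the block), 3 with no filter, and 0 to 2 with 1 mouse left out. Against control MEFs it was 4 to 4 and 4 to 7 with 1 mouse left out, and between doses 0 to 0. The listed pathway genes called in senescence, 19, were 12 with only the 2 groups and 11 to 18 with 1 mouse left out. With the lower dose the 3 called became 0 with only the 2 groups, 9 by adjusted p alone and 1 to 3 with 1 mouse left out. With the higher dose the 2 called became 4 with DESeq2 or no filter, 0 with only the 2 groups, 1 with library 5(2) alone and 1 to 3 with 1 mouse left out. By expected counts in place of TPM the Tuba1a share was 29.3% in control and 34.6% in senescent MEFs.

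With the mouse as replicate block, a paired fit, 2, 2, 1, 4, 4 and 0 members were called in the 6 comparisons in the order of the report, and 17, 2 and 2 pathway genes in the first 3. It ended the calls of Tubb5 in senescence (−0.99) and of Tubb6 at 300 μg/mL against control MEFs, added that of Tuba1c in senescence (−1.01), and changed no other call of a member. Among pathway genes it ended the calls of Arl2 and Cdk5rap2 (named after its values were seen) in senescence and of Dclk1 at 100 μg/mL.

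Direction turned for these values. In senescent against control MEFs these were Tuba4a (−0.01) and Tubb3 (0.03) with library 5(1) alone and Tubb2a (−0.03) with library 5(2) alone. For Tuba1a at 100 μg/mL against senescent MEFs it was 0.07 with DESeq2, RLE factors, no filter and at least 10 counts, 0.08 with only the 2 groups and 0.15 with the offset, with and without the block. Against control MEFs Tubb3 was −0.05 at 100 μg/mL with library 5(2) alone, and at 300 μg/mL −0.09 with the libraries apart and −0.30 with 5(2) alone. Between doses, with the offset, Tubb2b was 0.08 with and without the block, and Tuba4a −0.01 with it. With 1 mouse left out, direction turned in these ranges. In senescent against control MEFs Tuba4a ran from −0.18 to 0.24, Tubb2a from −0.52 to 0.43 and Tubb2b from −0.79 to 0.08. At 100 μg/mL against senescent MEFs Tuba1a ran from −0.13 to 0.63, Tubb2a from −0.49 to 0.46, Tubb2b from −0.66 to 0.21, Tubb4b from −0.36 to 0.77 and Tubb6 from −0.87 to 0.44. At 300 μg/mL Tuba1a ran from −0.49 to 0.23 and Tubb2a from −0.83 to 0.12. Against control MEFs Tubb2a at 100 μg/mL ran from −0.33 to 0.03 and Tubb3 at 300 μg/mL from −0.06 to 0.58.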
